A study of Mus musculus with 6 samples.

Results

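The genes described here are 10 members of the bHLH-PAS family of transcription factors, Sim1, Sim2, Npas1, Npas3, Arnt, Arnt2, Ahr, Ahrr, Epas1 and Hif1a, out of 24453 gene rows in each count file. They were taken by gene symbol, and all 10 had a row. The set was chosen by measured expression, since Sim2 differed widely between the groups compared, so the members' differences in that comparison are given as descriptions: no p-value is printed for a member, and whether a member passed the threshold of the fit over all genes is stated as a description too. The groups were 3 libraries labelled Ring1a/b 2KO, with the genotype Ring1a-/- Ring1b-/-, and 3 labelled control, all from back skin of mice at postnatal day 0. RING1A and RING1B put ubiquitin on histone H2A as the enzymes of a Polycomb complex, and so help to keep developmental genes silent. The labels name neither a Cre driver nor what the control mice carry at these loci, and they do not say whether each library came from a separate mouse, so p-values measure the spread between these libraries, which may be technical in part.

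A bHLH-PAS protein has a basic helix-loop-helix region, which binds DNA, and PAS domains, which hold partners or small molecules. These factors work as pairs. A regulated subunit (SIM, NPAS, AHR or HIF) binds a general partner, ARNT or its relative ARNT2, and the pair reads short sites with an ACGTG or GCGTG core. Hypoxia-inducible factors (HIF) are made stable by low oxygen, the aryl hydrocarbon receptor (AHR) is turned on by ligands such as dioxins and tryptophan products, and SIM and NPAS proteins act mainly in the developing nervous system. In skin, AHR and HIF proteins are known from keratinocytes, where they bear on barrier genes and on metabolism.

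Libraries held between 24759973 and 29855374 counts in 2KO and between 28195035 and 30798564 in control. Levels are given as CPM, the count relative to the library's total after TMM scaling, in which 1 count was worth 0.0323 to 0.0392 CPM. The labels call the cells hair follicle cells, while the attached protocol describes a sort for interfollicular epidermis. Basal keratinocyte markers summed to between 19962 and 27219 CPM in 2KO and between 14055 and 26332 CPM in control. Ly6a, the sort marker Sca1, was below 8 CPM in all 6 libraries. The targeted genes, Ring1 for RING1A and Rnf2 for RING1B, overlapped between the groups. Ring1 had 1.84, 7.34 and 14.1 CPM in 2KO, against 19.5, 22.4 and 3.37 CPM in control. Its overlap came from control replicate 3 alone. Rnf2 lay between 66.4 and 89.1 CPM in 2KO and between 47.1 and 79.4 CPM in control. The genotype could therefore not be read from these transcripts, and 2KO and control below mean the libraries so labelled. The replicate-1 libraries stood apart from the others on the second principal component, at 53.1 in 2KO and 33.1 in control, against -24.7 to -18.2 in the other 4. Xist, the RNA of the inactive X chromosome, was high in 2KO replicates 1 and 2 and control replicate 3 (4552 to 5358 CPM) and below 11 CPM in the other 3 libraries.

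Of the 10 members, 9 had enough counts to be tested, and Sim2 passed that filter through its 2KO counts alone. In edgeR's quasi-likelihood fit across 14972 genes, 3 members were past the threshold (Benjamini-Hochberg adjusted p under 0.05 over all genes) as higher in 2KO (Sim2, Arnt2 and Npas3) and 1 as lower (Ahr), where 6.61% of all tested genes were higher and 2.42% lower. Nothing is read from this count, since the comparison brought the family forward. In 5 of the 9 the groups were fully separated, with 2KO above control for Sim2, Npas1, Npas3 and Arnt2 and below it for Ahr, and such separation was seen for 15.2% of all tested genes with 2KO above and 13.1% with 2KO below.

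**Figure D1:**
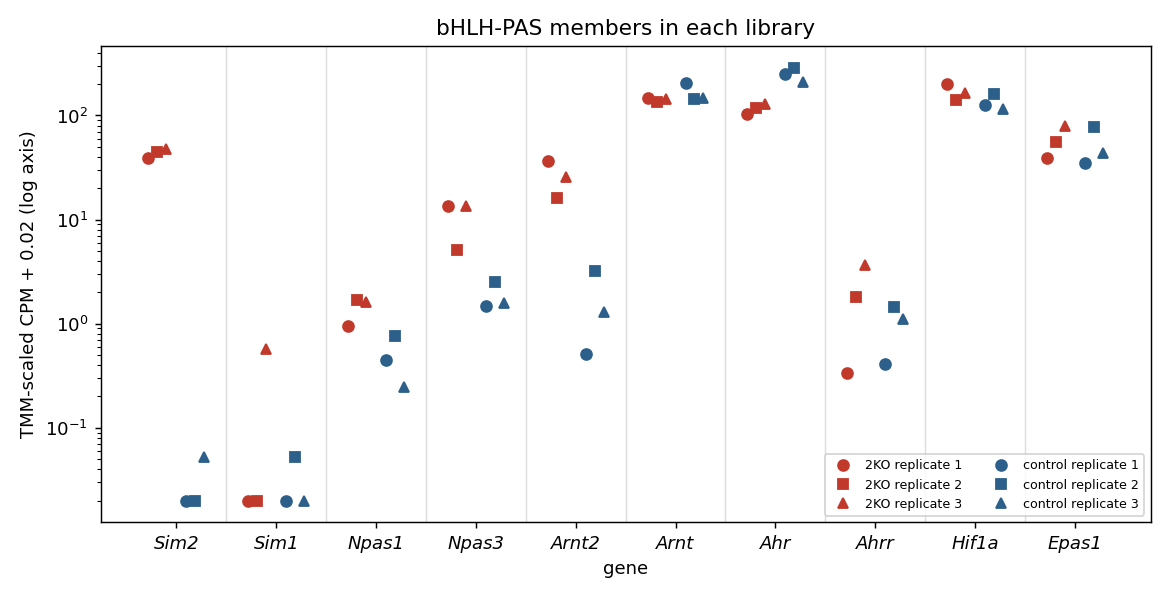
TMM-scaled CPM of the 10 members in each library, on a log axis with 0.02 added so that libraries with 0 counts can be drawn; red marks are 2KO and blue marks control, and the mark shape gives the replicate. Sim2 lies between 39.1 and 48.1 CPM in 2KO and at or under 0.0327 CPM in control, Arnt2 and Npas3 are separated at lower levels, and Ahr is lower in 2KO.

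Sim2 and Sim1 encode the single-minded proteins, named for a fly gene of the central nervous system midline. Sim2 (chromosome 16, 94084931 to 94127032, plus strand) had 39.1, 44.4 and 48.1 CPM in the 2KO libraries, from 998, 1330 and 1226 counts, against 0, 0 and 0.0327 CPM in the control libraries, from 0, 0 and 1 counts. Every 2KO library was thus high and every control library was at or near 0. The ratio of 2KO over control was 3940, with a 95% exact counting interval of 707 to 155672 that covers counting error only. Sim1 (chromosome 10, 50894754 to 50989152, plus strand), a factor of hypothalamic neurons, had 0, 0 and 14 counts in 2KO against 0, 1 and 0 in control. All 14 counts came from 2KO replicate 3, at 0.549 CPM, and Sim1 was too low to be tested. On the scale of CPM per kb of exon, Sim1 averaged 0.0212 in 2KO, against 10.4 for Sim2 in the same libraries.

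In the brain, SIM1 and ARNT2 act together in neurons of the hypothalamus. Of 8 genes of those neurons (Otp, Pou3f2, Crh, Trh, Oxt, Avp, Sst and Mc4r), none had enough counts to be tested. The highest value among them was that of Trh in control replicate 3, at 0.458 CPM.

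Npas1 and Npas3 encode factors of neurons, Npas1 of inhibitory neurons among others. Npas3 (chromosome 12, 53248677 to 54072175, plus strand) had 13.4, 5.14 and 13.5 CPM in 2KO, against 1.45, 2.52 and 1.57 CPM in control. The lowest 2KO library, replicate 2, stood above the highest control library. Its log2 fold change was 2.53 (SE 0.48), and it was not past the threshold without both replicate-1 or without both replicate-3 libraries. Npas1 (chromosome 7, 16455721 to 16477728, minus strand) was low throughout, with 0.941, 1.67 and 1.61 CPM in 2KO, against 0.425, 0.742 and 0.229 CPM in control. The groups did not overlap, but the difference (log2 fold change 1.59, SE 0.78) was not past the threshold in the fit.

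Markers of nerve and glia were not constant between the groups. Over 7 Schwann and nerve genes the summed level was between 42.8 and 54.9 CPM in 2KO and between 26.3 and 41.4 CPM in control. None of the 7 was at 0 in all libraries of a group. Merkel cell genes summed to between 57.0 and 93.5 CPM in 2KO and between 16.5 and 26.8 CPM in control, with 2 of 6 tested higher (Krt18 and Piezo2). The log2 fold changes of 3 of the 6 lay below 0 (Krt8, Krt20 and Isl1), none past the threshold. Krt20 averaged 0.349 CPM in 2KO and 2.06 CPM in control, without overlap. Atoh1, the factor that defines Merkel cells, was at 0, 0 and 0.196 CPM in 2KO and at 0.886, 3.48 and 0.229 CPM in control. Dermal fibroblast genes summed to between 1143 and 1402 CPM in 2KO and between 1252 and 1436 CPM in control. Of 9 tested, 2 were higher (Pdgfra and Fbn1), where 6.61% of all tested genes were higher. The log2 fold changes of 3 of the 9 lay below 0 (Col1a2, Lum and Postn), none past the threshold. Postn lay between 384 and 581 CPM in 2KO and between 635 and 816 CPM in control, without overlap. The part of such cells in the levels of Sim2, Npas3 and Arnt2 was not tested. In bulk RNA, a change in the number of cells that carry a transcript and a change in transcript per cell cannot be told apart.

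ARNT and ARNT2 are the general partners. Arnt (chromosome 3, 95434388 to 95497240, plus strand) had 146, 134 and 143 CPM in 2KO, against 207, 143 and 147 CPM in control. The groups overlapped, and the log2 fold change was -0.23 (SE 0.19), not past the threshold. Arnt2 (chromosome 7, 84246278 to 84410176, minus strand), in mice chiefly a gene of brain and kidney, had 36.5, 16.1 and 25.8 CPM in 2KO, against 0.496, 3.16 and 1.27 CPM in control. Each 2KO library was above each control library, and the log2 fold change was 3.98 (SE 0.62). Arnt2 was not past the threshold in the fit without replicate 3 of both groups.

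Per kb of exon, Arnt2 made up 20.7%, 11.1% and 15.8% of the sum of Arnt and Arnt2 in 2KO, against 0.249%, 2.25% and 0.896% in control, so that Arnt remained the main partner transcript in all 6 libraries. The mean share was 15.9 ± 4.76% in 2KO and 1.13 ± 1.02% in control (SD, n = 3 each). The sum of both was 23.0, 18.9 and 21.2 CPM per kb in 2KO, against 26.0, 18.3 and 18.5 CPM per kb in control, and overlapped between the groups. On the same scale Sim2 stood at 50.9%, 62.7% and 63.8% of Arnt in 2KO, and at 0%, 0% and 0.0422% of Arnt in control.

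**Figure D2:**
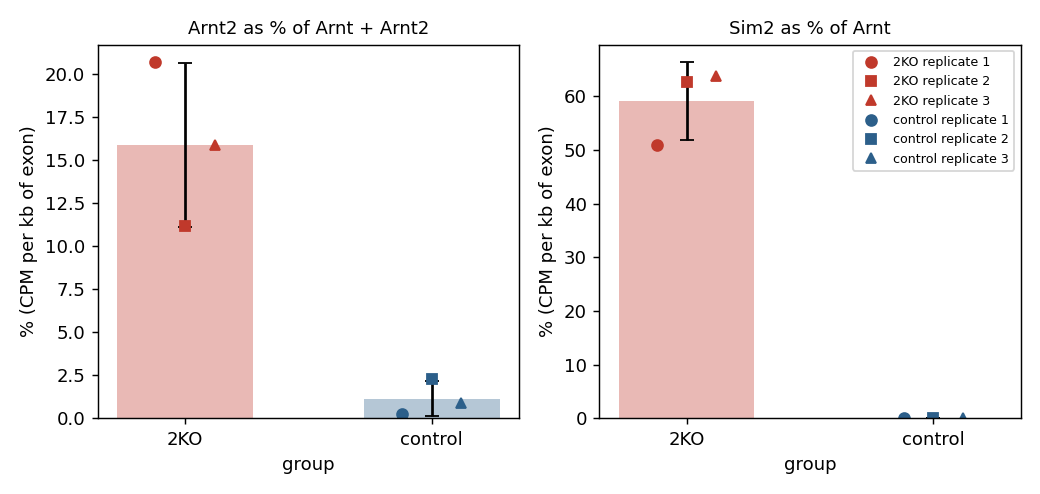
Left, Arnt2 as a percentage of Arnt plus Arnt2, and right, Sim2 as a percentage of Arnt, both from CPM per kb of exon; bars are means, error bars SD over 3 libraries, and marks single libraries, with 2KO in red and control in blue. Arnt2 averages 15.9% of the partner transcripts in 2KO and 1.13% in control, and Sim2 reaches between 50.9% and 63.8% of the level of Arnt in 2KO.

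Vertebrate genes bound by Polycomb complexes often have promoters rich in CpG, so promoter windows are shown for Arnt2 and Npas3, which were higher in 2KO, and for Arnt, which was not past the threshold. Each window runs from 250 bases before to 50 after a start annotated by RefSeq, 300 bases in all, in the sequence of GRCm38.p6. That start can differ from the start in the GENCODE span given with each member: the Npas3 window lies before its span, and the Hif1a window lies inside its span. Sequences are written 5′ to 3′ on the strand of the gene with CpG dinucleotides in capitals.
Arnt2, chr7:84409989-84410288, minus strand: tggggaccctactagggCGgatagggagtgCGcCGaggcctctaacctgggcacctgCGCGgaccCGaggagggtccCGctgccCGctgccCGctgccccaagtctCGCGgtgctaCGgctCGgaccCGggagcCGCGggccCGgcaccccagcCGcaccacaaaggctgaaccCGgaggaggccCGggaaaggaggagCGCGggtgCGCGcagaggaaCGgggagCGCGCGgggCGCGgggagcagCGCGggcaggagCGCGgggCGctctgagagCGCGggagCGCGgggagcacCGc
Npas3, chr12:53248182-53248481, plus strand: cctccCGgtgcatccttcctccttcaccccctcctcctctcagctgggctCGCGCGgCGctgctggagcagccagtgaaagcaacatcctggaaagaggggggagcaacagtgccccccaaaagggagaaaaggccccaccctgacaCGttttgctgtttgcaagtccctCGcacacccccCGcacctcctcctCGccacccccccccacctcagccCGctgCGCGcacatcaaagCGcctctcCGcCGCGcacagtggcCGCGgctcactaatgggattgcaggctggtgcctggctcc
Arnt, chr3:95434140-95434439, plus strand: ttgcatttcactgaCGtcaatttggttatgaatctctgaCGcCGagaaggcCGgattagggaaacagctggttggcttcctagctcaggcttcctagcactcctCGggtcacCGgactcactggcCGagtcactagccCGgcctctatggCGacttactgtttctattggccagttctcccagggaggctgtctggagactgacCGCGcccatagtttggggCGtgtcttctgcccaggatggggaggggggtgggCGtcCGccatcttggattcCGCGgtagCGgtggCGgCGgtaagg
The window of Arnt2 held 40 CpG and was 76.7% G and C, with an observed over expected CpG ratio of 0.925. That ratio is above those of 89.2% of 32841 promoter windows of the same length, whose median is 0.384. Npas3 held 18 CpG (ratio 0.584, above 63.2% of windows) and Arnt held 19 (ratio 0.727, above 73.1%). Windows matched by symbol for 7 of the 10 members, all but Sim2, Ahr and Epas1. The ratios of the 7 ran from 0.584 for Npas3 to 0.925 for Arnt2, all above the median of all windows. Polycomb binding was not measured in these libraries, and its relation to the ratios or to the differences between the groups was not tested.

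AHR is the ligand-dependent member, and AHRR is its repressor, a gene that AHR itself turns on. Ahr (chromosome 12, 35497974 to 35535038, minus strand) had 103, 117 and 129 CPM in 2KO, against 252, 288 and 209 CPM in control. All 3 control libraries were above all 3 2KO libraries. The log2 fold change was -1.10 (SE 0.18). Ahrr (chromosome 13, 74211118 to 74292331, minus strand) had 0.314, 1.80 and 3.65 CPM in 2KO, against 0.390, 1.42 and 1.08 CPM in control, and overlapped between the groups (log2 fold change 0.99, SE 0.91). Markers of the skin's keratinocyte compartments were set beside these values. Of all tested genes 2.42% were lower. Of 8 hair follicle genes 4 fell (Lgr5, Shh, Krt25 and Krt71, with Krt25 at 0 in 2KO). The median log2 fold change of the 8 was -1.44, and 7 of them lay below 0. The sum over all 8 lay between 1043 and 1778 CPM in 2KO and between 1080 and 1809 CPM in control. Of 5 interfollicular genes 1 fell (Krt77), and their sum lay between 814 and 2998 CPM in 2KO and between 2873 and 10794 CPM in control. The part of these compartments in the level of Ahr was not tested.

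Of 9 target genes of AHR, Ahrr among them, 6 could be tested and none passed the threshold in edgeR, 1 being lower at an unadjusted p under 0.05. DESeq2 called 1 lower and limma-voom none, and edgeR called 1 lower without 2KO replicate 1. The median log2 fold change of the 6 was -0.56, beside -0.02 over all tested genes. Cyp1a1, the xenobiotic-metabolizing enzyme that marks AHR activity, had no counts in 2KO and 0.319, 0.129 and 0.131 CPM in control, too low to be tested. Tiparp, an AHR target that also modifies AHR and stands in the regulator list as well, was the most abundant, with 122, 54.2 and 70.4 CPM in 2KO, against 148, 93.8 and 103 CPM in control (edgeR adjusted p = 0.424). Of 13 regulators of HIF and AHR proteins, such as Vhl, the prolyl hydroxylases Egln1 to Egln3 and the chaperone Hsp90ab1, none passed the threshold in edgeR, DESeq2 or limma-voom, with 1 higher and 1 lower at an unadjusted p under 0.05. The 1 higher was Egln3, and Egln1 and Egln3 stand in the list of HIF target genes below as well. Leaving out 2KO replicate 1 gave 1 higher. Hsp90ab1, the most abundant, averaged 2082 ± 220.4 CPM in 2KO and 2169 ± 174 CPM in control (SD, n = 3 each, edgeR adjusted p = 0.898).

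HIF1A and EPAS1 (HIF2A) are the oxygen-regulated subunits, and their main control is on the protein, which RNA counts do not show. Hif1a (chromosome 12, 73901375 to 73947530, plus strand) had 199, 142 and 165 CPM in 2KO, against 125, 161 and 116 CPM in control. Epas1 (chromosome 17, 86753700 to 86833410, plus strand) had 39.2, 55.9 and 78.8 CPM in 2KO, against 34.96, 77.4 and 43.7 CPM in control. Both genes overlapped between the groups, with log2 fold changes of 0.33 (SE 0.20) and 0.16 (SE 0.34), and that of Epas1 changed sign when 2KO replicate 3 or control replicate 1 was left out. Epas1 is known from endothelium, whose 10 markers summed to 4.67 to 24.1 CPM in 2KO and 8.91 to 15.8 CPM in control.

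Hif3a, the third HIF subunit, was no member of the set but belongs to the same family, and it rose. It had 46.5, 41.5 and 65.4 CPM in 2KO, against 17.5, 8.94 and 6.50 CPM in control (log2 fold change 2.22, SE 0.38, edgeR adjusted p = 0.00675). No 2KO library reached as low as any control library. HIF3A has forms that oppose the other HIF proteins, and counts per gene do not tell its forms apart. The call of Hif3a was lost without replicate 3 of both groups (edgeR adjusted p = 0.0745).

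Among 9 further genes of the wider family (Npas2, Npas4, Clock, Arntl, Arntl2, Hif3a and the coactivators Ncoa1, Ncoa2 and Ncoa3), all tested, 2 rose, Hif3a and Arntl, and none fell, a share of 22.2% beside 6.61% of all tested genes. No gene was lower at an unadjusted p under 0.05 either, nor with DESeq2 or limma-voom. Arntl, which encodes the clock factor BMAL1, had 19.4, 18.6 and 23.0 CPM in 2KO, against 5.57, 9.74 and 10.1 CPM in control (log2 fold change 1.26, SE 0.30, edgeR adjusted p = 0.0303). Its call was lost whichever library was left out, so that 1 of the 9 rose in each of those fits. Ncoa2, the most abundant gene of the list that did not pass, averaged 238 ± 79.9 CPM in 2KO and 193 ± 12.1 CPM in control (edgeR adjusted p = 0.505). The median log2 fold change of the 9 was 0.31. This list too was chosen with earlier results of these data known, so its share is a description.

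Of 17 clock genes around CLOCK and BMAL1, 16 were tested and none passed the threshold in edgeR, with 3 higher and 2 lower at an unadjusted p under 0.05. DESeq2 called the same numbers, 3 higher and 2 lower, limma-voom called none, and edgeR called 1 higher without 2KO replicate 2. Their median log2 fold change was -0.08. Bhlhe40, the most abundant, a repressor of the clock loop that low oxygen also induces, had 337, 144 and 187 CPM in 2KO, against 505, 235 and 168 CPM in control (edgeR adjusted p = 0.622).

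**Figure D3:**
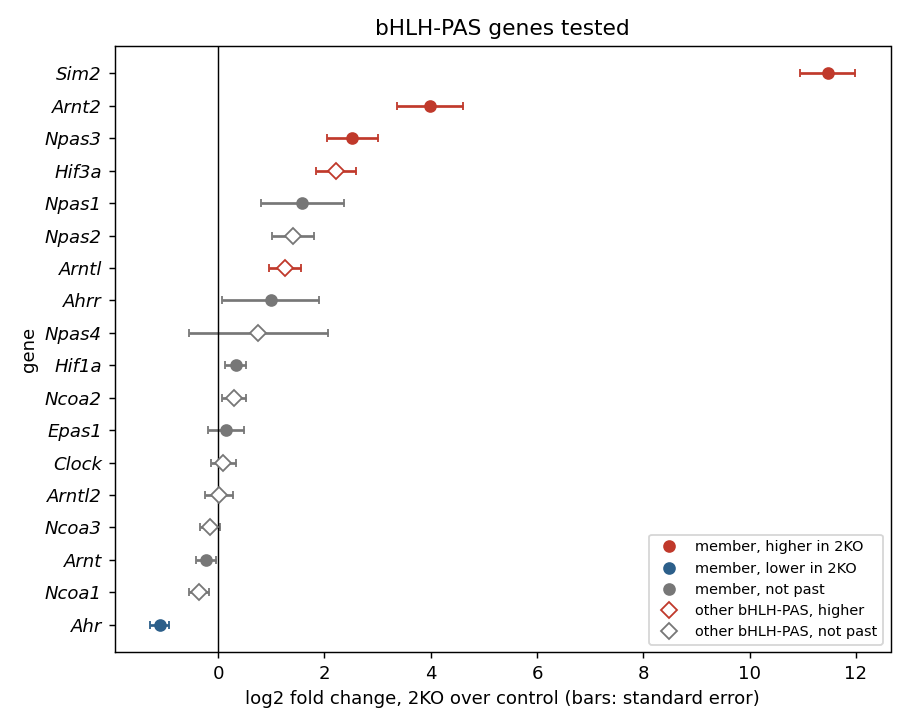
Log2 fold change of 2KO over control for the 18 bHLH-PAS genes that could be tested, with standard errors from edgeR's fit; filled circles are members, open diamonds other genes of the family, red is higher and blue lower in 2KO past the threshold, and grey did not pass. The fitted value of Sim2 rests on 1 control count and depends on the fit's prior count; Ahr is the single gene past the threshold below 0.

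Of 43 listed target genes of the HIF proteins 41 were tested, and 9 rose (22.0%, beside 6.61% of all tested genes) and 1 fell (2.44%, beside 2.42%). For 14 of the 41 (34.1%) all 2KO libraries were above all control libraries, beside 15.2% of all tested genes. The log2 fold changes of 35 of the 41 lay above 0, beside 7282 of all 14972 tested genes. The list was chosen with earlier results of these data known, so these shares are a description. The median log2 fold change of the list was 0.58, beside -0.02 over all tested genes. The genes that rose encode glucose transporters (Slc2a1 and Slc2a3), enzymes of glycolysis and lactate production or their regulator (Pfkp, Pfkfb3, Pkm and Ldha), collagen prolyl hydroxylases (P4ha1 and P4ha2) and the vascular growth factor Vegfa.

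P4ha2 had 20.9, 30.1 and 42.5 CPM in 2KO, against 3.26, 5.90 and 3.92 CPM in control, a 7.14-fold rise (log2 fold change 2.84, SE 0.36, edgeR adjusted p = 0.00193). Slc2a3, which encodes the glucose transporter GLUT3 of neurons and other cells, had 43.6, 27.0 and 25.1 CPM in 2KO, against 3.01, 2.68 and 0.261 CPM in control, a 16.1-fold rise (log2 fold change 4.01, SE 0.69, adjusted p = 0.00738). Both kept their call under all 15 alternatives. Pfkfb3, whose product speeds glycolysis, had 16.7, 25.9 and 47.6 CPM in 2KO, against 5.25, 7.55 and 6.27 CPM in control, a 4.73-fold rise (edgeR adjusted p = 0.00767). Pfkp, a phosphofructokinase subunit, had 71.2, 52.3 and 67.4 CPM in 2KO, against 20.7, 28.6 and 27.5 CPM in control, a 2.49-fold rise (adjusted p = 0.00693). Pfkfb3 and Pfkp lost their call in 1 of 15 alternatives, that without replicate 3 of both groups. For each of these 4 genes the lowest 2KO library was above the highest control library.

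The other 5 that rose, named after their values were seen, were Vegfa, Slc2a1, Pkm, Ldha and P4ha1, with log2 fold changes between 0.69 and 1.72 and edgeR adjusted p between 0.0094 and 0.0443. Slc2a1, the main glucose transporter of basal keratinocytes, had 317, 1038 and 1018 CPM in 2KO, against 182, 283 and 257 CPM in control, so that 2KO replicate 1 lay close to the controls. Of the 5, Vegfa kept its call whichever single library was left out, and the other 4 lost theirs without 2KO replicate 2 or any 1 control library, among others. Cxcr4, a chemokine receptor, was the one target that fell, with 2.90, 5.30 and 3.96 CPM in 2KO, against 14.4, 11.4 and 19.9 CPM in control (edgeR adjusted p = 0.011), and its call was lost without control replicate 3. Car12, a carbonic anhydrase and the most abundant target that did not pass, averaged 476 ± 196 CPM in 2KO and 322 ± 64.2 CPM in control (SD, n = 3 each, edgeR adjusted p = 0.299). Gapdh and Eno1, which are abundant in most cells, were listed at under 10 and 0.2 CPM. Such glycolytic genes, Ldha and Pkm with them, have near-identical copies that can take or share reads, and their values are uncertain.

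The level of the HIF target list varied among the 2KO libraries. The median over its genes of the log2 level, centred on each gene's mean over the 6 libraries, was -0.11, 0.42 and 0.60 in 2KO, against -0.37, -0.38 and -0.24 in control. The 2KO libraries were above the control libraries, with replicate 1 nearest to them. Without 2KO replicate 1 the number of targets that rose was 14, and without control replicate 2 or 3 it was 5. Without replicate 3 of both groups it was 2, P4ha2 and Slc2a3. The same medians for the 6 AHR targets were -0.01, -0.54 and -0.59 in 2KO, against 0.29, 0.16 and 0.32 in control.

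**Figure D4:**
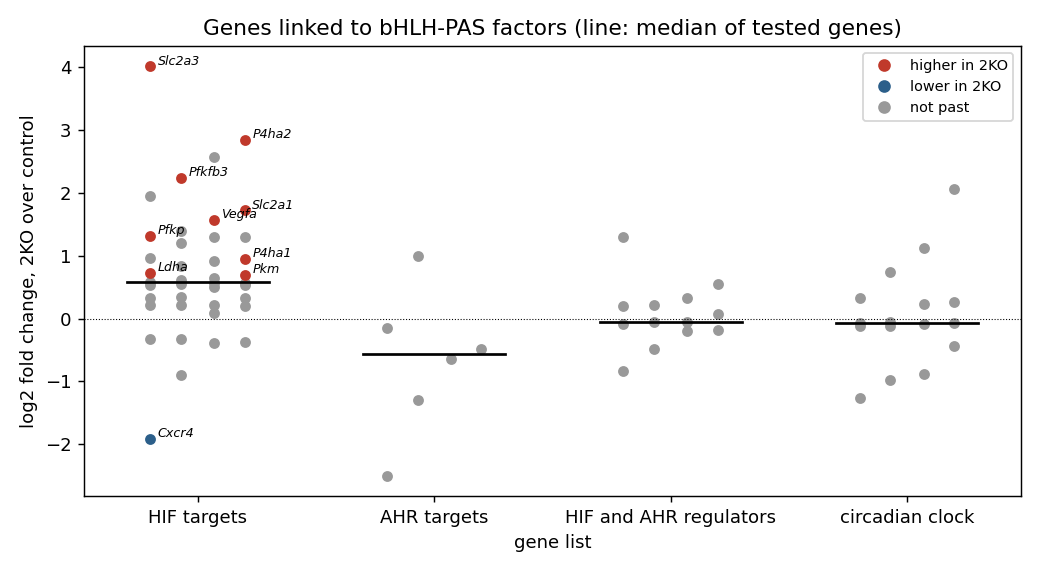
Log2 fold change of 2KO over control for each tested gene of 4 lists linked to bHLH-PAS factors, with red for higher and blue for lower in 2KO past the threshold, grey for not past, and a black line at the median of each list. In the HIF target list 9 genes are red and 1 is blue around a median of 0.58, and no gene of the other 3 lists is past the threshold.

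HIF pairs read mainly an ACGTG core and AHR pairs a GCGTG core, but a core does not tell which pair reads it. Both strands of each 300-base window were searched for each core, so that a CACGTG counts as a match on each strand. At least 1 ACGTG lay in 19.6% of the 32841 windows and at least 1 GCGTG in 32.4%. For the HIF targets, 26 of 50 windows (52.0%, 35 genes) held ACGTG and 28 (56.0%) held GCGTG, and for the AHR targets 0 of 8 and 5 of 8 (62.5%). Many of these windows are rich in CpG, which both cores contain, and windows of 1 gene overlap, so no test was made. Of the 7 members with a window, Npas3 and Hif1a held ACGTG, and Arnt and Ahrr held GCGTG. The windows of P4ha2, a target that rose, and of Hif1a, which did not pass, are shown with the cores in capitals.
P4ha2, chr11:54100674-54100973, plus strand: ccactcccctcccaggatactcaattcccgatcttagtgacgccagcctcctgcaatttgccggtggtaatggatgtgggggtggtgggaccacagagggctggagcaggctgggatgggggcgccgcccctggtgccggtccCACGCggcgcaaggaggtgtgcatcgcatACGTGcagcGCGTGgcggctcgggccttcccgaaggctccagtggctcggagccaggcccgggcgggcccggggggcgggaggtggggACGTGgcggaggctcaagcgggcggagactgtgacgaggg
Hif1a, chr12:73907617-73907916, plus strand: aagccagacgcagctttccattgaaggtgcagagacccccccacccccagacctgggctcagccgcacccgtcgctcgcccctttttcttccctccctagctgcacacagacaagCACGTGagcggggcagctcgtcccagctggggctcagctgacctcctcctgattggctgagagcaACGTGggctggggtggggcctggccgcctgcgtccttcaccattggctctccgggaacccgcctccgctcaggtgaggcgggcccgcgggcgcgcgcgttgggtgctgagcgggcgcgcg
P4ha2 held 2 ACGTG and 2 GCGTG matches and Hif1a held 3 ACGTG matches, 2 of them on the opposite strands of 1 CACGTG. A match is a stretch of letters and does not show binding.

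The order of the members by level, in CPM per kb of exon, was partly the same in the groups. In 2KO the order was Hif1a (28.6 ± 4.93), Ahr (18.9 ± 2.16), Arnt (17.6 ± 0.763), Sim2 (10.4 ± 1.07), Epas1 (10.4 ± 3.56), Arnt2 (3.40 ± 1.32), Npas3 (1.78 ± 0.799), Npas1 (0.467 ± 0.134), Ahrr (0.203 ± 0.177) and Sim1 (0.0212 ± 0.0368). In control it was Ahr (40.5 ± 6.48), Hif1a (22.7 ± 4.01), Arnt (20.7 ± 4.51), Epas1 (9.30 ± 4.01), Npas3 (0.307 ± 0.0971), Arnt2 (0.214 ± 0.178), Npas1 (0.155 ± 0.0861), Ahrr (0.102 ± 0.0556), Sim2 (0.00258 ± 0.00447) and Sim1 (0.00125 ± 0.00216), all as mean ± SD with n = 3. Ahr was thus the second in 2KO and the first in control, and Sim2 was at the level of Epas1 in 2KO and the ninth in control. Neighbours in the order whose libraries overlapped in 2KO were Ahr and Arnt, Sim2 and Epas1, Arnt2 and Npas3, Npas1 and Ahrr, and Ahrr and Sim1. In control they were Hif1a and Arnt, each neighbouring pair from Npas3 down to Ahrr, and Sim2 and Sim1. Exon lengths are those of all annotated transcripts together, which may differ from the lengths the authors counted over.

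Genes beside the members were examined to see how far along the chromosome the differences reached. Of 144 genes within 500 kb of a member, 111 were tested, and 5 were higher (4.50%, beside 6.61% of all tested genes) and 2 lower (1.80%, beside 2.42%). Sim2 had 11 such genes, 10 of them tested. Both genes that fell lie beside Sim2 and are the nearest tested genes on each side. Distances in the text are gaps between gene spans. Hlcs, which encodes the enzyme that attaches biotin to carboxylases, lies 1.85 kb from Sim2, but the starts of the genes are 229 kb apart. Hlcs had 29.5, 23.9 and 30.0 CPM in 2KO, against 50.9, 54.4 and 49.6 CPM in control (log2 fold change -0.89, SE 0.20, edgeR adjusted p = 0.022). Chaf1b, a subunit of the chromatin assembly factor that loads histones at replication, lies 179 kb away and had 13.5, 19.8 and 18.7 CPM in 2KO, against 39.0, 31.9 and 46.3 CPM in control (log2 fold change -1.17, SE 0.25, adjusted p = 0.018). In both genes every 2KO library was below every control library. The call of Hlcs was lost without 2KO replicate 2 or any 1 control library, and that of Chaf1b without 2KO replicate 3 or control replicate 1 or 3.

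The 5 neighbours that rose lie beside members that were not past the threshold. Socs5, a suppressor of cytokine signaling, lies 274 kb from Epas1 and had 124, 136 and 159 CPM in 2KO, against 49.6, 62.0 and 52.6 CPM in control (edgeR adjusted p = 0.00247). Rhoq, a small GTPase gene 130 kb from Epas1, had 35.7, 35.2 and 40.1 CPM in 2KO, against 20.2, 23.8 and 18.0 CPM in control (edgeR adjusted p = 0.0389). Pnmal2, 467 kb from Npas1, averaged 10.2 ± 4.48 CPM in 2KO and 0.915 ± 0.777 CPM in control (adjusted p = 0.0128), and Cers2, a ceramide synthase gene 111 kb from Arnt, averaged 71.6 ± 18.0 CPM in 2KO and 39.7 ± 3.25 CPM in control (adjusted p = 0.0449). Slc12a7, a potassium and chloride transporter gene 394 kb from Ahrr, averaged 41.7 ± 3.71 CPM in 2KO and 21.4 ± 3.99 CPM in control (edgeR adjusted p = 0.0263). The number of neighbours that rose was 1 without 2KO replicate 2, 3 without 2KO replicate 3 or control replicate 1 and 2 without control replicate 3. The number that fell was 1 without 2KO replicate 2 or 3 or control replicate 2, and 0 without control replicate 1 or 3.

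**Figure D5:**
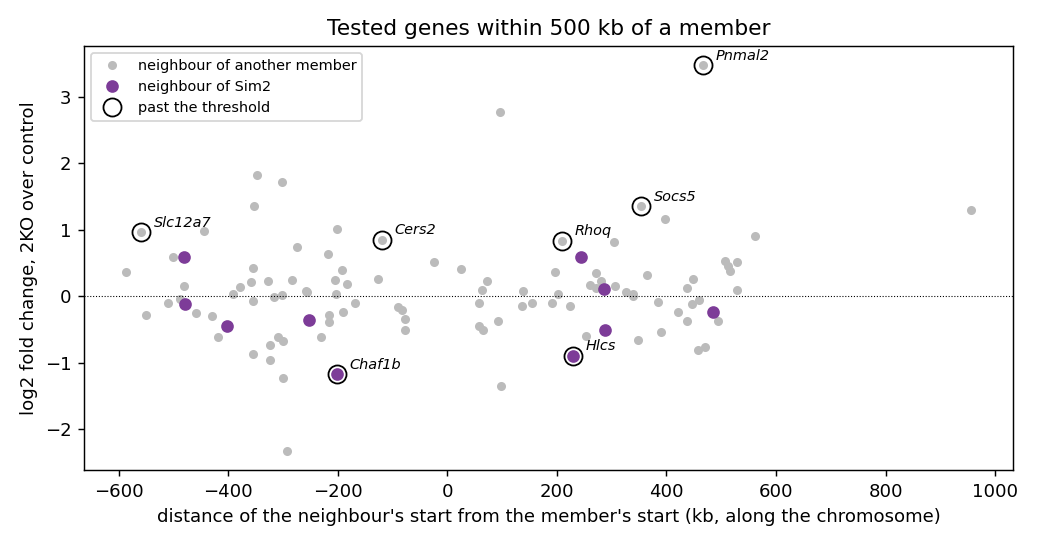
Log2 fold change of 2KO over control for the 111 tested genes within 500 kb of a member, against the distance of their start from the start of the member in kb; purple points are neighbours of Sim2, grey points those of the other members, and circles mark genes past the threshold. The circled neighbours of Sim2, Chaf1b and Hlcs, lie below 0, and the 5 other circled genes lie above it.

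Genes whose pattern over the 6 libraries was most like that of Sim2 were taken by the root mean square difference of log2(CPM + 0.5), each gene centred on its own mean. The 5 nearest were Zic1 (0.165), a factor of neural development; Barx1 (0.238), of stomach and tooth; Hoxd13 (0.447), of limb and genital patterning; Gm11538 (0.5), a predicted gene; and Adgrb1 (0.552), a receptor of brain. Zic1 had 45.5, 55.7 and 44.1 CPM in 2KO, against 0.106, 0 and 0.0327 CPM in control. Barx1 had 38.2, 43.3 and 31.7 CPM in 2KO, against 0, 0.0645 and 0 CPM in control. In the 5 genes no 2KO library was below 15.6 CPM and no control library above 0.678 CPM, the pattern for which they were picked.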

How the data were processed

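RNA was measured in 6 libraries of cells sorted from newborn mouse back skin, 3 labelled Ring1a/b 2KO and 3 labelled control, made per the labels' protocols from 10 ng of amplified total RNA and read as single 100-nucleotide reads. The authors deposited counts, whole numbers of reads per gene symbol and not normalized. The submitters' processing notes list mm10, HTSeq 0.6.1, TopHat2 2.0.13, DESeq2 1.6.3 and Cufflinks 2.2.1. No source used here says whether counting used strand, so reads of Npas1, Npas3, Arnt2, Ahr and Hif1a cannot be told apart from those of annotated genes that overlap them on the other strand. Arnt, Arnt2, Epas1 and Hif1a also overlap annotated genes on their own strand, which strand would not tell apart.

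Genes were filtered by filterByExpr and tested by the quasi-likelihood method of edgeR 4.0.16 (R 4.3.3) with TMM scaling, no covariate and Benjamini-Hochberg adjustment over 14972 genes. The SE was taken from the F statistic, as the log2 fold change over its root. Alternatives used DESeq2 1.42.0, limma-voom (limma 3.58.1), other scaling and filters, a replicate block, Xist as a covariate and libraries left out. Gene spans and exon lengths came from GENCODE vM21, on GRCm38 (mm10), in which 97.1% of rows matched 1 gene; promoters are RefSeq's of GRCm38.p6. Named genes were the members, in each list up to 4 genes past the threshold with the smallest p and the most abundant gene not past it, the neighbours past the threshold or nearest to Sim2, and the 5 genes most like Sim2. The members and lists were chosen with earlier results of these data known. The result of 1 marker gene is not reported here.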

Additional observations from a re-analysis of the deposited data

How the results depend on the processing

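Among the members, whose calls are a description, 1 was higher (Sim2) with both replicate-3 libraries left out. Among all genes, DESeq2 called 733 lower, the Xist covariate 231, and leaving out both replicate-3 libraries gave 309 higher and 72 lower. Leaving out 1 library at a time gave 615 to 854 higher and 184 to 347 lower. For the other bHLH-PAS genes, 1 rose with the Xist covariate or with both replicate-1 libraries left out, 0 without replicate 3 of both groups, and 1 to 1 without any 1 library. For HIF targets, 14 rose with DESeq2 or with both replicate-1 libraries left out, 2 rose and 0 fell without replicate 3 of both groups, and 5 to 14 rose and 0 to 1 fell without 1 library. For regulators, 1 rose with the replicate block or with both replicate-1 libraries left out, and 0 to 1 without 1 library. For AHR targets, 1 fell with DESeq2, and 0 to 1 without 1 library. For clock genes, DESeq2 called 3 higher and 2 lower, 1 rose with no low-count filter, 1 rose and 1 fell with the replicate block, and 0 to 1 rose without 1 library. For neighbours, DESeq2 called 10 higher and 4 lower, both replicate-1 libraries left out gave 3 and 0, both replicate-3 libraries left out 0 and 0, a window of 200 kb 2 higher, and leaving out 1 library 1 to 5 higher and 0 to 2 lower. Of the 5 genes most like Sim2, 4 remained with a pseudocount of 0.1 CPM.

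Without replicate 3 of both groups the log2 fold change turned to -0.24 for Epas1 and -0.054 for Ncoa2. Without 1 library that of Epas1 ran from -0.10 to 0.56, that of Hsp90ab1 from -0.14 to 0.028 and that of Bhlhe40 from -0.87 to 0.16. The cause of these shifts was not tested. Same-numbered libraries shared deviations with correlations of 0.323, 0.0958 and -0.13, so the numbers were not taken to pair them, and 2KO replicates 2 and 3 correlated better with a control of another number; the replicate block gave 1142 higher and 540 lower genes. Counts limit Sim1, Npas1 and Ahrr, which had under 100 counts in every library.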
